A study of Mus musculus with 20 samples.

Results

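The genes of 5 proteins that bind messenger RNA in male germ cells, Dazl, Boll, Ybx2, Pabpc1 and Pabpc6, were followed in mouse testes after heat shock. The members were all probe sets that the array annotation assigns to 1 of these genes and to no other, which gave 5 of 18193 genes and 10 of 34945 single-gene probe sets on the array (2 for Dazl, 4 for Boll, 1 for Ybx2, 2 for Pabpc1 and 1 for Pabpc6). Total RNA of whole testes was measured on Affymetrix Mouse Genome 430 2.0 arrays, on which a probe set is a group of short probes that reads 1 transcript or a few. The mice were 8 weeks old and of 2 inbred strains, AKR/N and C57BL/6, and the 20 arrays gave 2 for each of 10 groups: in each strain, testes taken 8, 10, 12 or 24 h after heat shock at 43 degrees C for 15 min, and unheated controls. The labels give the controls no time, so that heat and the time of sampling cannot be told apart, and nothing in them tells if duplicate arrays stand for different mice or for 1 pool of RNA. P-values therefore measure only the spread between these arrays, which may be technical.

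As background, germ cells make many messenger RNAs well before the protein is needed, and RNA-binding proteins help to control how long such messages are stored and when they are translated. DAZL and BOLL belong to the DAZ family, whose members bind sites in the untranslated 3' ends of germ cell messages and promote their translation. YBX2, also called MSY2, is an abundant Y-box protein of meiotic and postmeiotic germ cells that packages and stabilises stored messages. PABPC1 is the general cytoplasmic poly(A)-binding protein, which coats the poly(A) tail and links it to the initiation machinery, and PABPC6 belongs to the same family of poly(A)-binding proteins.

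In the mouse assembly GRCm38.p6, RefSeq places Dazl on chromosome 17 at 50279393-50293620 and Boll on chromosome 1 at 55243566-55363789. Ybx2 lies on chromosome 11 at 69935805-69941604, Pabpc1 on chromosome 15 at 36595658-36609581 and Pabpc6 on chromosome 17 at 9666497-9669704. The 250 bases before a transcription start of the DAZ-family genes are shown because Dazl and Boll changed in opposite directions in heated C57BL/6 testes. Both windows read 5' to 3' in the direction of the gene, which is the minus strand for both, and capitals mark a match to the CCAAT box on either strand (CCAAT or its complement ATTGG).
Dazl, chr17:50293621-50293870: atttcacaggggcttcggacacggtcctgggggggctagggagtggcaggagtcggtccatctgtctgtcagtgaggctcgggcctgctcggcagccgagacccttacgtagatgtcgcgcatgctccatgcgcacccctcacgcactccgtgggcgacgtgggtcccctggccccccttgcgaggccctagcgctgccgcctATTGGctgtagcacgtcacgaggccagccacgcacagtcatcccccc
Boll, inner start, chr1:55362729-55362978: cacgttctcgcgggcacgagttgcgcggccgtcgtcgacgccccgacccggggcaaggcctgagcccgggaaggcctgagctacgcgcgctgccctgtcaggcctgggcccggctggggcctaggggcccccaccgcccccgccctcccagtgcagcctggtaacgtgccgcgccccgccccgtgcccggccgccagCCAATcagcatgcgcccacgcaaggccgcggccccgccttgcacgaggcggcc
The match lay 47 to 43 bases before the Dazl start, on the strand opposite to the gene, and 53 to 49 bases before the Boll start, on the strand of the gene. The window before the outer start of Boll, chr1:55363754-55364003, held no match to the CCAAT box and is not printed. The same 5 letters occurred on either strand in 33.8% of 32851 RefSeq promoter windows of that length, so the match is a description of these windows and no more. The heat shock element cores GAANNTTC and TTCNNGAA, held by 6.69% and 7.17% of all windows, were not among the letters of the 5 windows matched for 3 of the 5 genes, Dazl, Boll and Ybx2; Pabpc1 and Pabpc6 were not matched. A Ybx2 window, chr11:69935649-69935898, also held CCAAT box matches, 140 to 136 and 87 to 83 bases before its start. The cAMP response element TGACGTCA, the E-box CACGTG and the GC box GGGCGG were also searched (1.55%, 6.02% and 32.7% of all windows). The first had no match in these windows. The E-box matched 9 to 4 bases before the outer start of Boll, and GC boxes matched in windows of Boll and Ybx2. The motifs were chosen after the values were seen.

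The tissue check read as testis on every array. Tnp1, a transition protein of elongating spermatids, had a signal of 9930 to 12549, and Ldhc, the lactate dehydrogenase of spermatocytes and spermatids, 8552 to 10536. Lcn8, an epididymal lipocalin, stayed between 1.71 and 34.3. Median array signals ran from 24.9 to 34.9, and the 2 arrays of a group correlated at 0.964 to 0.985 over tested probe sets. The lowest of these correlations belonged to C57BL/6 at 12 h, where replicate 2 also had the highest median and the highest 3'/5' signal ratio of the actin control (3.57, against a lowest ratio of 1.87 over all arrays), so results at C57BL/6 12 h are also given without it where the call depends on it. Changes below are differences of log2(signal + 16) with their standard error (SE), and a change is said to have risen or fallen only where limma's adjusted p was under 0.05 over 28000 tested probe sets. Adding 16 understates the change of dim probe sets. Signals of different probe sets are not compared with each other. In whole testes, fewer cells of a type and less RNA per cell cannot be told apart.

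**Figure D1:**
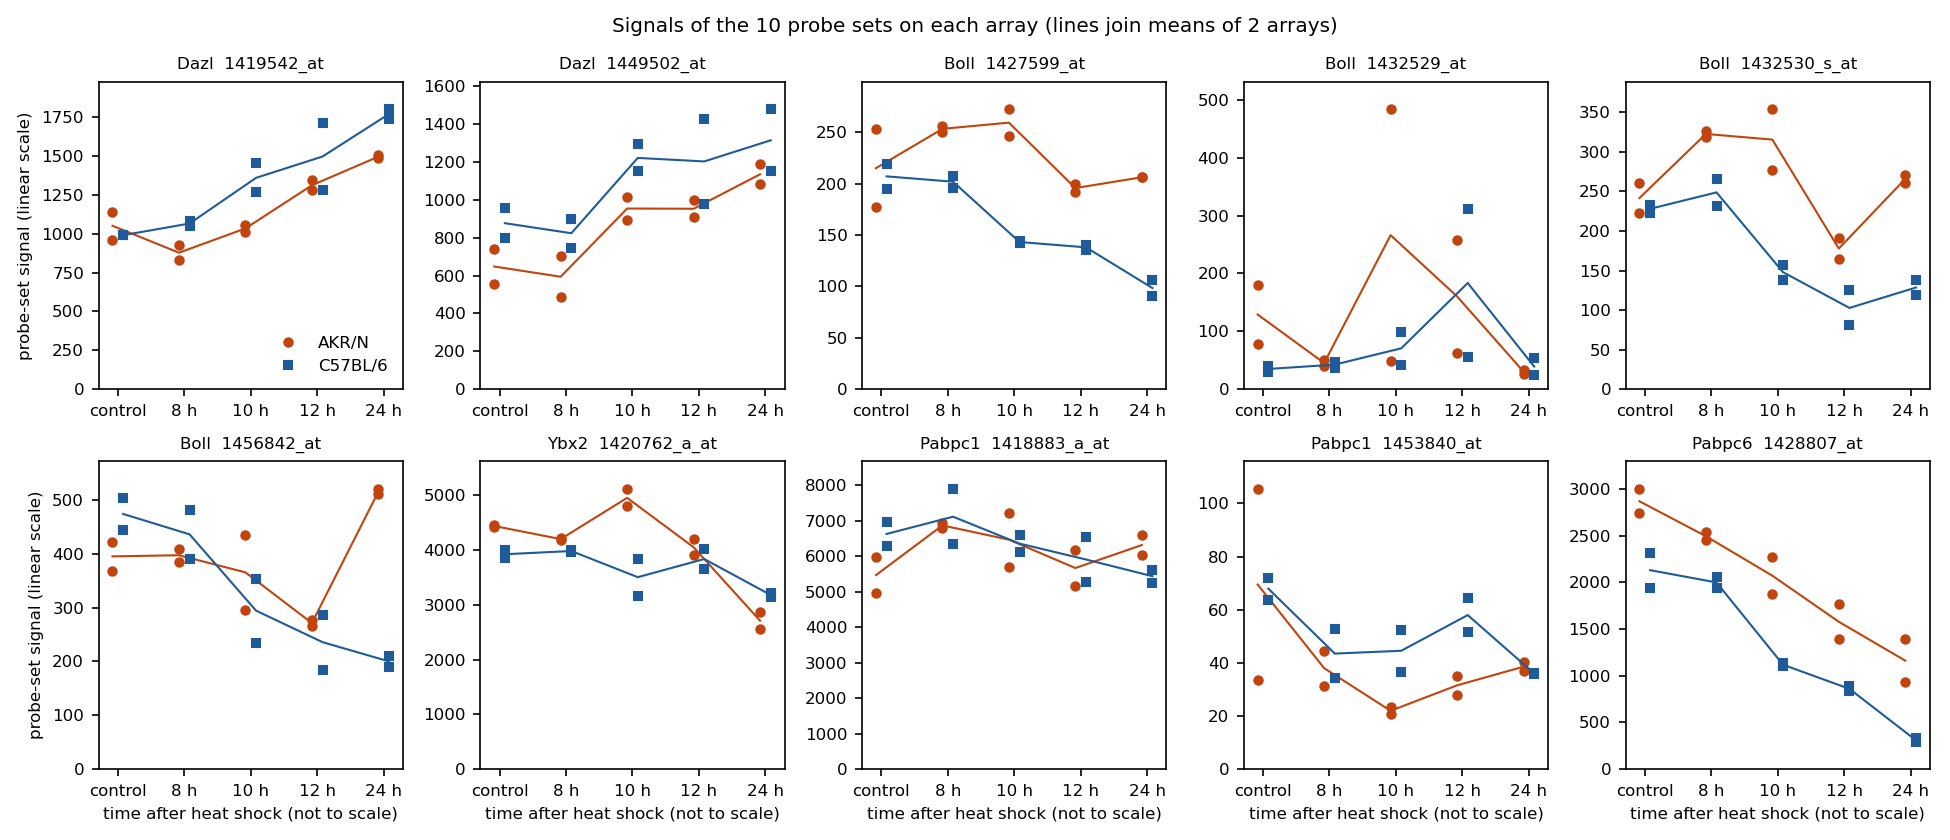
Signal of each of the 10 probe sets on each of the 20 arrays (y axis, linear signal from 0, a different scale in each panel) in controls and at 8, 10, 12 and 24 h after heat shock (x axis, not to scale), for AKR/N (circles) and C57BL/6 (squares), with lines through the means of the 2 arrays. Pabpc6 runs down to 285.5 and 332 in C57BL/6 at 24 h, Dazl ends above its controls in both strains, and 3 of the 4 Boll probe sets part between the strains at 24 h.

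Dazl was higher 24 h after heat in both strains. On 1419542_at, AKR/N testes had signals of 959 and 1143 in controls, 925 and 831 at 8 h, 1011 and 1057 at 10 h, 1280.1 and 1343 at 12 h, and 1484 and 1507 at 24 h. On the same probe set, C57BL/6 testes had 989 and 992 in controls, 1051 and 1080.2 at 8 h, 1453 and 1266 at 10 h, 1711 and 1282 at 12 h, and 1741 and 1799 at 24 h. In each strain both arrays at 24 h lay above every control and every 8 h array, and in C57BL/6 the arrays at 8, 10 and 12 h also lay above both controls. The fit gave a rise of 0.51 ± 0.15 at 24 h in AKR/N (adjusted p = 0.0298) and rises of 0.57 ± 0.15 at 12 h (adjusted p = 0.0202) and 0.83 ± 0.15 at 24 h (adjusted p = 0.000845) in C57BL/6. The changes that missed the call were 0.32 at 12 h in AKR/N and 0.45 at 10 h in C57BL/6.

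The second Dazl probe set, 1449502_at, ran the same way with more spread. AKR/N testes had signals of 556 and 740.3 in controls, 487 and 702 at 8 h, 896 and 1012 at 10 h, 997 and 909 at 12 h, and 1082 and 1188 at 24 h. The C57BL/6 signals were 799 and 955 in controls, 901 and 747 at 8 h, 1293 and 1149.9 at 10 h, 1428 and 978 at 12 h, and 1152 and 1477 at 24 h. From 10 h on, every heated array of this probe set lay above both controls of its strain. The rise at 24 h in AKR/N was 0.81 ± 0.22 (adjusted p = 0.0233), whereas the C57BL/6 changes of 0.47 at 10 h, 0.43 at 12 h and 0.57 at 24 h (adjusted p = 0.225, 0.216 and 0.0671) missed the call, the last of them being called in 4 other settings with an adjusted p of 0.0235 to 0.0425. The strains were not shown to differ in their Dazl change at 24 h: AKR/N minus C57BL/6 was -0.32 on 1419542_at and 0.24 on 1449502_at, both uncalled. Of the Dazl calls against control, only the C57BL/6 rise at 24 h on 1419542_at held in every setting tried. Both AKR/N calls at 24 h were lost without control replicate 1 (0.38 with adjusted p = 0.194 on 1419542_at and 0.60 with adjusted p = 0.172 on 1449502_at) or without either 24 h array, and with arrays centred on their medians 1419542_at gave 0.48 (adjusted p = 0.0959). The C57BL/6 rise at 12 h was lost without 12 h replicate 1 (0.37, adjusted p = 0.131), without either control, and with median centring (0.45, adjusted p = 0.129).

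Boll, the family member that mouse spermatids need in order to mature, fell in heated C57BL/6 testes on 3 of its 4 probe sets. None of the 4 had a called change against control in AKR/N at any time. On 1456842_at, AKR/N testes had signals of 369 and 422 in controls, 385 and 409.6 at 8 h, 296 and 435 at 10 h, 267 and 276 at 12 h, and 511 and 520.1 at 24 h. In C57BL/6 testes they were 445 and 504 in controls, 391 and 481 at 8 h, 354 and 235 at 10 h, 287 and 185 at 12 h, and 190.0 and 210.4 at 24 h. At 24 h the AKR/N arrays were the highest of their strain and the C57BL/6 arrays lay below all 4 arrays of the C57BL/6 control and 8 h groups. The C57BL/6 falls were -0.99 ± 0.23 at 12 h (adjusted p = 0.0114) and -1.18 ± 0.23 at 24 h (adjusted p = 0.00139), against uncalled AKR/N changes of -0.51 at 12 h and 0.37 at 24 h. Without C57BL/6 12 h replicate 2, the 12 h change was -0.69 (adjusted p = 0.111), and without control replicate 2 it was -0.90 (adjusted p = 0.0883).

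The probe sets 1427599_at and 1432530_s_at of Boll gave the same split of calls, with called falls in C57BL/6 only. The strain difference of their change was itself uncalled at 12 h and 24 h (limma, adjusted p from 0.0584 to 0.569). The suffix _s_at marks a probe set whose probes can match more than 1 transcript. On 1427599_at, AKR/N testes had signals of 177 and 253 in controls, 256 and 251 at 8 h, 246 and 272 at 10 h, 192 and 199 at 12 h, and 206 and 206 at 24 h. C57BL/6 testes had 219 and 195 in controls, 196 and 208 at 8 h, 142 and 144 at 10 h, 140.1 and 136 at 12 h, and 106 and 90.7 at 24 h. All 6 C57BL/6 arrays from 10 h on lay below both C57BL/6 controls, while the AKR/N arrays from 10 h on ranged from 192 to 272. The C57BL/6 falls were -0.53 ± 0.15 at 12 h (adjusted p = 0.0296) and -0.96 ± 0.15 at 24 h (adjusted p = 0.000305), and the AKR/N changes were -0.11 at 12 h and -0.04 at 24 h, both uncalled. The 12 h call on this probe set was lost without any 1 of its 4 arrays, at -0.45 (adjusted p = 0.168) to -0.61 (adjusted p = 0.0791).

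On 1432530_s_at, AKR/N testes had signals of 223 and 260.2 in controls, 319 and 326 at 8 h, 277 and 353 at 10 h, 164 and 191 at 12 h, and 270.4 and 261 at 24 h. Those of C57BL/6 testes were 233 and 223 in controls, 232 and 265 at 8 h, 158 and 138 at 10 h, 125 and 80.6 at 12 h, and 119 and 138 at 24 h. Both strains had their lowest mean at 12 h, and both AKR/N arrays at 24 h were back above their controls. The AKR/N changes were -0.41 at 12 h and 0.13 at 24 h, both uncalled. The C57BL/6 falls were -1.06 ± 0.18 at 12 h (adjusted p = 0.00226) and -0.76 ± 0.18 at 24 h (adjusted p = 0.00559). The 24 h call was lost without 24 h replicate 1 (-0.66, adjusted p = 0.0561). At 10 h in C57BL/6 the changes of 1427599_at, 1432530_s_at and 1456842_at were -0.48, -0.58 and -0.68, with adjusted p from 0.0658 to 0.0842.

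The fourth Boll probe set, 1432529_at, went its own way. AKR/N testes had signals of 180.4 and 77.7 in controls, 40.7 and 49.9 at 8 h, 483 and 49.0 at 10 h, 257 and 63.3 at 12 h, and 34.1 and 26.6 at 24 h. C57BL/6 testes had 40.5 and 29.6 in controls, 47.7 and 37.4 at 8 h, 42.0 and 99.4 at 10 h, 56.3 and 311 at 12 h, and 53.3 and 25.1 at 24 h. The 2 arrays of several groups stood far apart, and the groups overlapped. The SE of a change was 0.85 on the log2 scale and none was called, although the changes against control reached -1.55 in AKR/N at 24 h (adjusted p = 0.224) and 1.60 in C57BL/6 at 12 h (adjusted p = 0.227). Its 4 highest arrays were AKR/N 10 h replicate 1, C57BL/6 12 h replicate 2, AKR/N 12 h replicate 1 and AKR/N control replicate 1, whose median array signals of 31.8, 34.9, 31.2 and 31.1 were among the 5 highest of the 20 arrays and included the highest. The part of array quality in these values was not tested. Over the 10 group means, the other 3 Boll probe sets correlated with each other at 0.775 to 0.895 (Pearson's r), and 1432529_at correlated with them at 0.15, -0.16 and -0.37. These correlations describe group means that share the same arrays.

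**Figure D2:**
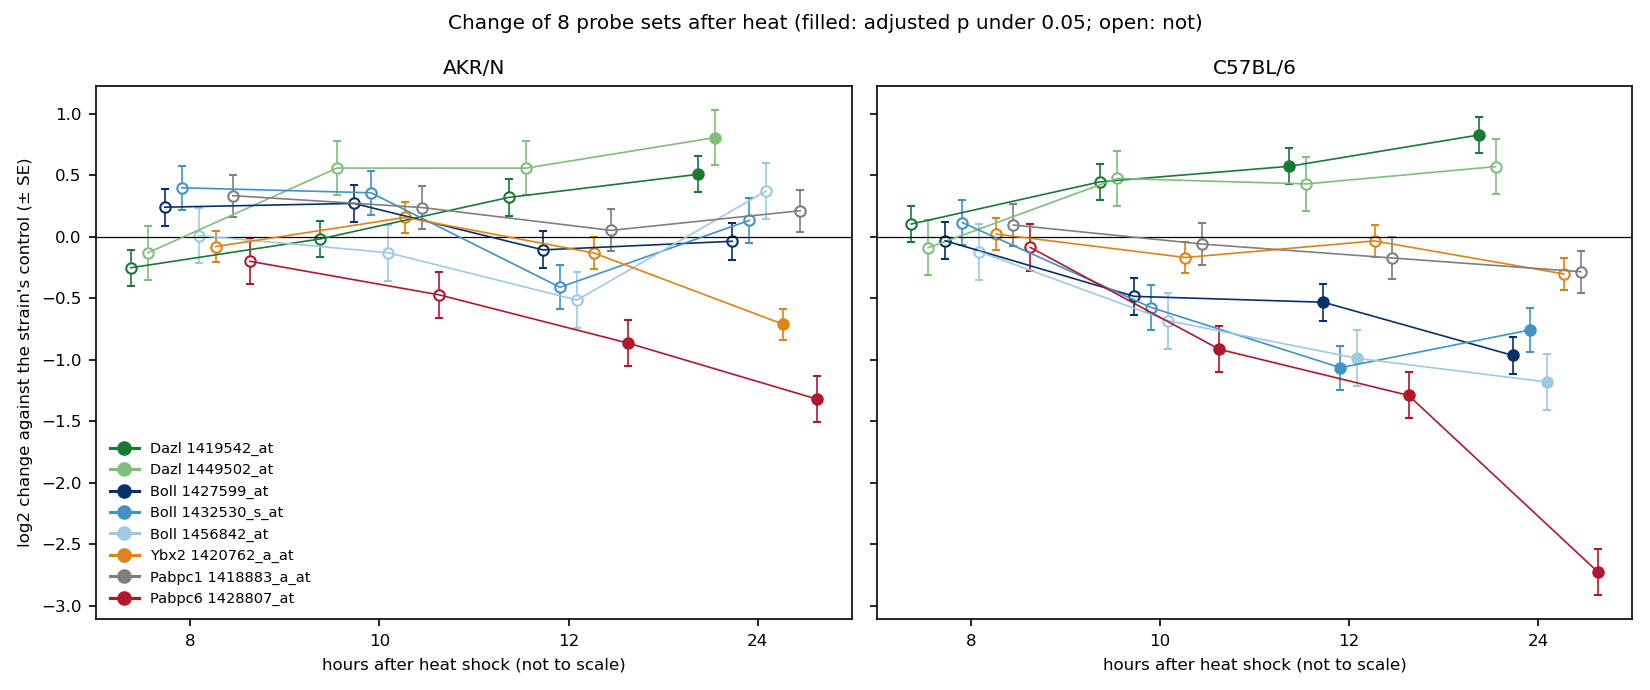
Change in log2(signal + 16) against the strain's own control (y axis, mean ± SE from the fit) at 8, 10, 12 and 24 h after heat shock (x axis, not to scale) for 8 of the 10 probe sets in AKR/N (left) and C57BL/6 (right), with filled points for an adjusted p under 0.05 and open points otherwise. Boll 1432529_at and Pabpc1 1453840_at, the dim or scattered probe sets, are left out. The 3 Boll probe sets are filled at 12 and 24 h in C57BL/6 and open at all times in AKR/N, and Pabpc6 1428807_at reaches -2.72 in C57BL/6 at 24 h.

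Ybx2, the gene of the message-storing Y-box protein, fell at 24 h in AKR/N. On its only probe set, 1420762_a_at, AKR/N testes had signals of 4457 and 4420.3 in controls, 4224 and 4175 at 8 h, 5109 and 4796 at 10 h, 4198 and 3903 at 12 h, and 2864 and 2554 at 24 h. C57BL/6 testes had 3846 and 4000.1 in controls, 3995 and 3969 at 8 h, 3166 and 3842 at 10 h, 3648 and 4024 at 12 h, and 3136 and 3222 at 24 h. The AKR/N arrays at 24 h were the 2 lowest of all 20, and in C57BL/6 both 24 h arrays also lay below both controls. The AKR/N change was -0.71 ± 0.13 (adjusted p = 0.00275) and the C57BL/6 change -0.30 ± 0.13 (adjusted p = 0.0892). The difference between these changes, -0.41, missed the call (adjusted p = 0.268), so that the strains were not shown to differ. Between 12 and 24 h, Ybx2 fell by 0.58 in AKR/N (adjusted p = 0.0175), against an uncalled -0.27 in C57BL/6. The fall between 12 and 24 h was lost without 12 h replicate 1 (-0.53, adjusted p = 0.123) or 24 h replicate 2 (-0.50, adjusted p = 0.167), whereas the fall against control held in every setting tried. The C57BL/6 change at 24 h was called in 4 other settings, among them median centring (-0.45, adjusted p = 0.0217).

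Pabpc1 had no change called by limma on either probe set in any of the 16 comparisons with all arrays and the settings given above. On 1418883_a_at, AKR/N testes had signals of 4969.6 and 5972 in controls, 6811 and 6936 at 8 h, 5712 and 7231 at 10 h, 5169 and 6174 at 12 h, and 6026 and 6611 at 24 h. The C57BL/6 signals were 6284 and 6982 in controls, 7892 and 6347 at 8 h, 6611 and 6111 at 10 h, 6545 and 5278 at 12 h, and 5252 and 5629 at 24 h. The changes at 24 h were 0.21 ± 0.17 in AKR/N (95% confidence interval -0.15 to 0.58) and -0.28 ± 0.17 in C57BL/6 (-0.65 to 0.08), intervals that allow changes in either direction. On 1453840_at the signals were low, from 20.6 to 105 over the 20 arrays, and the change furthest from 0 was -1.03 at 10 h in AKR/N (adjusted p = 0.0778). The AKR/N controls of that probe set were far apart, at 33.6 and 105, and without 1 of the 4 arrays the change ran from -1.68 without control replicate 1 (called, adjusted p = 0.0104) to -0.39 without control replicate 2 (adjusted p = 0.42). It was also called with a 60th percentile filter (adjusted p = 0.0478) and with a prior variance that follows the mean (adjusted p = 0.0422). At 24 h in AKR/N the change of that probe set was -0.51, uncalled, and -1.15 without control replicate 1 (called, adjusted p = 0.0124). Over the 10 group means the 2 Pabpc1 probe sets correlated at -0.072.

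Pabpc6 had the largest change of the 10 probe sets and fell in both strains. On 1428807_at, AKR/N testes had signals of 2997 and 2741 in controls, 2541 and 2449 at 8 h, 1871 and 2272 at 10 h, 1389.7 and 1767 at 12 h, and 1396 and 928 at 24 h. In C57BL/6 testes they were 1945 and 2317 in controls, 1939.7 and 2059 at 8 h, 1101 and 1136 at 10 h, 887 and 833 at 12 h, and 332 and 285.5 at 24 h. From 10 h on in both strains every heated array lay below both controls, and the C57BL/6 arrays at 24 h were the 2 lowest of all 20. In AKR/N, Pabpc6 fell by 0.86 ± 0.19 at 12 h (adjusted p = 0.0189) and by 1.32 ± 0.19 at 24 h (adjusted p = 0.000838). In C57BL/6 it fell from 10 h on, with changes of -0.92 ± 0.19 at 10 h (adjusted p = 0.0123), -1.29 ± 0.19 at 12 h (adjusted p = 0.00111) and -2.72 ± 0.19 at 24 h (adjusted p = 3.02e-06), the last a fold of 0.151 on the scale of signal + 16.

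The fall of Pabpc6 continued between 12 and 24 h in C57BL/6, at -1.43 ± 0.19 (adjusted p = 0.00242), against an uncalled -0.46 in AKR/N (adjusted p = 0.154). Ordered by group mean, AKR/N controls and AKR/N 8 h stood highest, and C57BL/6 10 h, 12 h and 24 h lowest. C57BL/6 controls, AKR/N 10 h and C57BL/6 8 h followed one another in the middle with overlapping arrays, and AKR/N 24 h overlapped its neighbours AKR/N 12 h and C57BL/6 10 h. At 8 h the changes were -0.20 in AKR/N and -0.09 in C57BL/6, both uncalled. The call at 10 h in C57BL/6 was lost without any 1 of its 4 arrays (-0.79 with adjusted p = 0.106 to -1.04 with adjusted p = 0.0533). The call at 12 h in AKR/N was lost without 12 h replicate 1 (-0.69, adjusted p = 0.156), control replicate 1 (-0.80, adjusted p = 0.106) or control replicate 2 (-0.93, adjusted p = 0.0629). The other Pabpc6 calls against control, and that between 12 and 24 h, held in every setting tried.

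Set against all tested probe sets, the members' counts began at none. At 8 h, 0 of the 10 were called in either strain, where limma called 0.121% of all tested probe sets in AKR/N and 0.0893% in C57BL/6 (2941 and 2080 had an unadjusted p under 0.05). At 10 h, 0 of 10 were called in AKR/N, where 3.81% of all were called and 5266 had an unadjusted p under 0.05, and 1 of 10, Pabpc6, in C57BL/6, where 7.2% of all were called. At 12 h, 1 of 10 was called in AKR/N against 5.24% of all, and 5 of 10 in C57BL/6 against 14.6% of all. At 24 h, 4 of 10 were called in AKR/N against 18.2% of all, with 2 higher (10.6% of all) and 2 lower (7.6% of all). In C57BL/6 at 24 h, 5 of 10 were called against 31% of all, with 1 higher (17.9% of all) and 4 lower (13.1% of all). That balance of all calls depends on the scaling: with arrays centred on their medians, 3211 of 27884 were called higher and 4615 lower. Between 12 and 24 h, 2 of 10 were called in AKR/N against 7.11% of all, and 1 of 10 in C57BL/6 against 6.22% of all. The members' counts moved when 1 array was left out: to 0 at C57BL/6 10 h, 0 to 1 at AKR/N 12 h, 2 to 3 at C57BL/6 12 h, 2 to 4 at AKR/N 24 h and 0 to 1 between 12 and 24 h in AKR/N, and with a pseudocount of 64 the count at C57BL/6 10 h was 5. Several of these probe sets read the same gene and are not independent. The comparisons with control within a strain share the same 2 control arrays.

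The question of whether the strains differ was addressed in controls, over all conditions and in the response to heat. In controls, 0 of 10 probe sets were called between AKR/N and C57BL/6, where limma called 4.78% of all and 5074 had an unadjusted p under 0.05. The differences ran from -0.44 on Dazl 1449502_at to 1.42 on the scattered Boll 1432529_at, and that of Pabpc6 was 0.43 (adjusted p = 0.241). The other Boll probe sets gave 0.033 on 1427599_at, 0.075 on 1432530_s_at and -0.25 on 1456842_at in controls. Averaged over the 5 conditions, 5 of 10 were called against 22.5% of all, and these include the heated groups. Pabpc6 was higher in AKR/N by 0.86 ± 0.08 (adjusted p = 3.94e-06), Boll by 0.51 ± 0.07 on 1427599_at (adjusted p = 6.98e-05) and by 0.63 ± 0.08 on 1432530_s_at (adjusted p = 5.61e-05). Boll 1456842_at gave 0.29 (adjusted p = 0.0559). Dazl was lower in AKR/N, at -0.20 ± 0.07 on 1419542_at (adjusted p = 0.0434) and -0.35 ± 0.10 on 1449502_at (adjusted p = 0.0191). The first of these Dazl calls was lost in 21 of 29 other settings, among them 17 of the 20 fits that each left out 1 array.

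The heat response itself differed between strains for 2 of 10 probe sets at 24 h, where 0.775% of all tested probe sets were called. The 3'/5' signal ratio of the actin control was 2.14 and 2.17 at 24 h against 2.92 and 2.39 in controls of AKR/N, and 2.84 and 2.58 at 24 h against 2.14 and 2.46 in controls of C57BL/6, so that it was lower at 24 h in AKR/N and higher in C57BL/6. Its part in the difference between strains was not tested. Boll 1456842_at had a change of 0.37 in AKR/N and of -1.18 in C57BL/6, a difference of 1.55 (95% confidence interval 0.86 to 2.24, adjusted p = 0.0432). Pabpc6 had a change of -1.32 in AKR/N and of -2.72 in C57BL/6, a difference of 1.40 (0.83 to 1.97, adjusted p = 0.0338). The Boll call was lost in 12 of 17 other settings. With all arrays kept these included a pseudocount of 1 (adjusted p = 0.0677), no filter on low values (adjusted p = 0.0563) and median centring (adjusted p = 0.0638), and it was lost without any 1 of the 8 arrays, at 1.46 to 1.65 with an adjusted p of up to 0.16. The Pabpc6 call was lost in 7 of 17 other settings, all of them fits with fewer arrays. It was lost without 7 of the 8, at differences of 1.11 to 1.53. The other Boll probe sets gave 0.93 on 1427599_at (adjusted p = 0.0584) and 0.89 on 1432530_s_at (adjusted p = 0.107), uncalled. At 8, 10 and 12 h, 0 of 10 were called, against 0%, 0.118% and 0% of all, with 1741, 3488 and 2548 probe sets of all at an unadjusted p under 0.05. At 10 h the uncalled differences were 0.76, 0.93 and 0.55 on Boll 1427599_at, 1432530_s_at and 1456842_at and 0.44 for Pabpc6.

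Within AKR/N, Boll 1456842_at rose between 12 and 24 h by 0.89 ± 0.23 (adjusted p = 0.0332), and 1432530_s_at gave an uncalled 0.54 (adjusted p = 0.0824). In C57BL/6 1432530_s_at gave an uncalled 0.31 over the same interval, which ran from 0.034 to 0.58 without 1 of its 4 arrays. The call on 1456842_at was lost without any 1 of its 4 arrays, at 0.86 to 0.91 with an adjusted p of up to 0.182, and with a pseudocount of 1 (adjusted p = 0.0543) or median centring (adjusted p = 0.0633).

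Other genes of message storage and translation changed in both directions at 24 h, as did all tested genes. Several of the list counts below are near the shares of all genes. Counts in these lists use the brightest probe set of each gene, and the 5 genes described above are in none of the lists. At that level limma called 23.4% of 15762 genes in AKR/N (12.3% higher and 11.1% lower) and 38% in C57BL/6 (21.4% higher and 16.6% lower), and the median change of all genes was -0.01 in AKR/N and 0.08 in C57BL/6. Of 40 tested genes of germ cell mRNA-binding and storage proteins, 7 rose and 6 fell in AKR/N, with a median of -0.0049, and 9 rose and 11 fell in C57BL/6, with a median of -0.17.

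Fmr1, which encodes the translational regulator FMRP, had signals of 435 and 513 at 24 h against 168 and 180.4 in controls of AKR/N, and of 496 and 420.1 against 150.4 and 131 in C57BL/6. It rose by 1.36 in AKR/N and by 1.60 in C57BL/6, and in both strains the 24 h arrays lay far above the controls. Zfp36l2, whose product promotes decay of AU-rich messages, rose by 1.44 in AKR/N and 1.03 in C57BL/6. Celf1, which encodes a GU-rich element binding protein, rose by 1.04 in AKR/N and 1.07 in C57BL/6. Cpeb1, which encodes the cytoplasmic polyadenylation element binding protein, rose by 0.82 in AKR/N and 0.93 in C57BL/6 at low signals. Tarbp2, whose product partners Dicer and binds double-stranded RNA, had 319 and 281 at 24 h against 569 and 569 in controls of AKR/N, and 233 and 233 against 531 and 635 in C57BL/6. It fell by 0.89 in AKR/N and by 1.26 in C57BL/6. Khdrbs3, a STAR-family RNA-binding protein gene, fell by 0.65 in AKR/N and by 1.38 in C57BL/6. The other genes with the largest falls were Adad2 and Rbmxl2 in AKR/N (-0.74 and -0.65), and Rbm44, a germ cell RNA-binding protein gene, and Ptbp2, a splicing regulator gene, in C57BL/6 (-1.16 and -0.98).

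Among partners of the poly(A) tail, 31 of 34 listed gene symbols were tested. In AKR/N 5 rose and 1 fell, with a median of 0.11, and in C57BL/6 7 rose and 6 fell, with a median of -0.03. With arrays centred on their medians, 1 gene of the list was called in AKR/N and 9 in C57BL/6. Paip2, which encodes an inhibitor of poly(A)-binding protein, had signals of 531 and 626 at 24 h against 264 and 305 in controls of AKR/N, and of 616 and 629.9 against 322 and 388 in C57BL/6. It rose by 0.98 in AKR/N and by 0.79 in C57BL/6. Nudt21, a subunit gene of the 3' end cleavage complex, fell by 0.38 in AKR/N and by 0.86 in C57BL/6. In C57BL/6 Pan3, a deadenylase subunit gene, fell by 1.38 and Cstf2t, a testis-enriched 3' end processing gene, by 0.998. Pan3 was read by an _x_at probe set, some of whose probes can match other genes. In AKR/N Papola, the gene of the nuclear poly(A) polymerase, rose by 0.52, Cpsf6, a 3' end cleavage factor gene, by 0.45 and Tent2, a cytoplasmic poly(A) polymerase gene, by 0.42. In C57BL/6 Cnot6l, a deadenylase gene of the CCR4-NOT complex, rose by 0.62, Cstf2, a cleavage stimulation factor gene, by 0.54 and Tob1, whose product recruits that deadenylase complex, by 0.48, and Larp1, a La-related RNA-binding protein gene, fell by 0.56.

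Of 22 tested translation initiation factor genes, 4 rose and 2 fell in AKR/N, with a median of 0.14, and 8 rose and 2 fell in C57BL/6, with a median of 0.20. Eif4ebp1, which encodes a repressor of the cap-binding factor, had 270.0 and 306 at 24 h against 149 and 129 in controls of AKR/N, and 622 and 550.2 against 225 and 185 in C57BL/6. It rose by 0.97 in AKR/N and by 1.45 in C57BL/6. Eif2s3x, a subunit gene of eIF2, rose by 0.62 in AKR/N and 1.20 in C57BL/6, and Eif4a1, the RNA helicase gene of the cap complex, by 0.45 in AKR/N and 0.85 in C57BL/6. Eif4ebp1 and Eif2s3x were also read by _x_at probe sets. Eif2s3y, the Y-linked copy of Eif2s3x, rose by 0.71 in AKR/N, and Eif4e3, a gene of the cap-binding family, by 0.72 in C57BL/6. The falls were those of Eif3b and Eif4g3 in AKR/N (-0.51 and -0.34) and of Eif1a and Eif2s2 in C57BL/6 (-0.62 and -0.44). Of 15 messages known from textbooks as bound or controlled by DAZL or YBX2, 2 rose in AKR/N (Sycp1 by 0.76 and Akap4 by 0.36), with a median of -0.02. In C57BL/6 Akap4, Pgk2 and Gapdhs rose by 0.50, 0.48 and 0.45 and Ddx4 fell by 0.62, with a median of 0.16. With arrays centred on their medians, 0 of the 15 were called in AKR/N and 1 in C57BL/6.

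**Figure D3:**
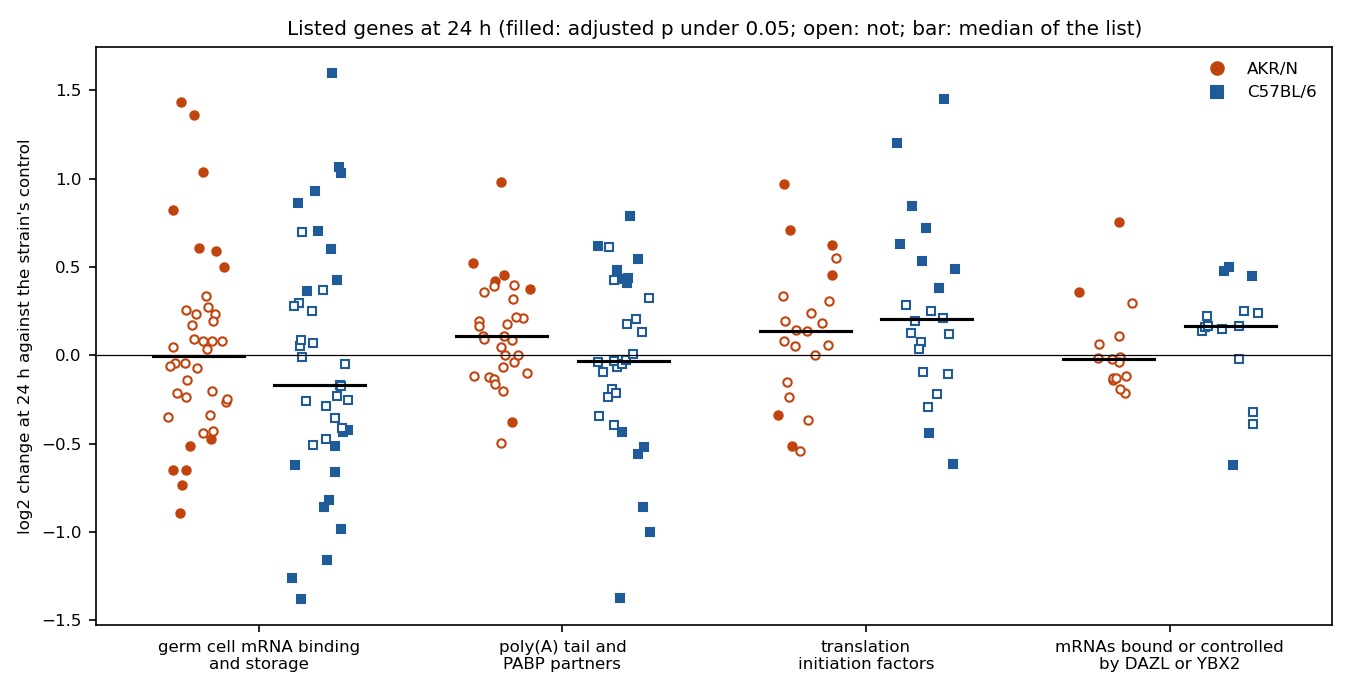
Change in log2(signal + 16) at 24 h against the strain's own control (y axis) for each tested gene of 4 lists (x axis), in AKR/N (circles) and C57BL/6 (squares), filled where the adjusted p was under 0.05, with a bar at the median of the list. Medians lie between -0.17 and 0.20, and the germ cell mRNA-binding list spans from Khdrbs3 at -1.38 to Fmr1 at 1.60, both in C57BL/6.

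Markers of pachytene spermatocytes and of spermatids moved beside these genes at 24 h. Several of them, among them Akap4, Gapdhs, Pgk2 and Ldhc, are also in the list of DAZL or YBX2 messages above. Sycp1 of that list is an early meiotic marker, so the counts of these lists share genes. Of all genes, read by 1 probe set each, 12.3% were called higher and 11.1% lower in AKR/N, and 21.4% and 16.6% in C57BL/6. Of 10 markers of pachytene spermatocytes, 4 fell in AKR/N, with a median of -0.40, and 7 fell and 1 rose in C57BL/6, with a median of -0.94. The summed signal of that list was 21539.7 to 21752 at 24 h against 24408 to 24569 in controls of AKR/N, and 21211 to 21972 against 23199 to 24313 in C57BL/6. Such a sum weighs the brightest genes most, whereas the median counts each marker alike. Ldhc, the brightest of that list, alone had signals of 8552 to 10536 over all arrays. Of 11 markers of round spermatids, 3 rose in AKR/N, and 4 rose and 2 fell in C57BL/6, with summed signals of 19892 to 20468 against 15281 to 19039 in AKR/N and 25665 to 27478 against 21393 to 23321 in C57BL/6. Of 10 markers of elongating spermatids, 1 rose in AKR/N and 2 in C57BL/6. The part of these markers in the changes of Boll, Ybx2, Pabpc6 and Dazl was not tested.

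The genes whose group means ran most like those of each member were found by Pearson's r over the 10 group means, which share the same 20 arrays. For Pabpc6 they were Slc2a3 (r = 0.998), Shcbp1l (0.996) and Taf7l2 (0.996), and 541 of 15761 other genes had an r over 0.9. Slc2a3, which encodes a glucose transporter, averaged 3869 at 24 h and 6293 in controls of AKR/N, and 2123 at 24 h and 5382 in controls of C57BL/6. For Dazl they were Taok3 (0.987), Ccdc122 (0.985) and Cdc42 (0.982), with 342 genes over 0.9. For Boll 1456842_at they were Dennd5b (0.967), Rb1cc1 (0.967) and Ptbp2 (0.961), with 48 genes over 0.9. Dennd5b averaged 237 at 24 h and 215 in controls of AKR/N, against 56.2 at 24 h and 235 in controls of C57BL/6. For Ybx2 they were Map2k2 (0.974), G6pc3 (0.963) and Mta1 (0.963), with 63 genes over 0.9. For Pabpc1 1418883_a_at they were Myg1 (0.953), Ahsa1 (0.925) and Selenof (0.922), with 12 genes over 0.9.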

How the data were processed

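The authors deposited 1 linear intensity (signal) per probe set and array of the Affymetrix 430 2.0 chip, from Trizol total RNA labelled with biotin, per the labels' protocols. Which software summarised and scaled these intensities was not given in the sources used here. In the deposited tables, the mean signal of every array, trimmed by 2% at each end, came to 125.001, so the arrays share a scale. Of 45101 rows, 64 controls, 932 probe sets of several genes and 9160 without a gene in the array annotation were left out, and 34945 of 1 gene kept. Values became log2(signal + 16). The 28000 probe sets whose highest group mean reached the 40th percentile of all mean log2 values (signal 17.5) were tested, all 10 members included. Limma 3.58.1 in R 4.3.3 fitted 1 mean per group over all 20 arrays, and empirical Bayes p-values were adjusted by Benjamini-Hochberg over all 28000, with calls under 0.05. The fit was tested on simulated data. The gene lists (4 of pathways and 13 of markers) used the brightest probe set of each gene. Members and lists were chosen with earlier results of these data known. From the lists, up to 4 called genes per direction and strain with the largest change at 24 h were named, along with the 3 genes most like each member. The number of arrays limits the precision. Replicate numbers showed no pairing common to the groups. Over 45 pairs of groups, deviations of same-numbered arrays correlated at -0.24 to 0.25 (median -0.0011, over 0.1 in 3 pairs). Pairing among only some groups was not tested. Other pseudocounts, filters, scalings, a replicate block, a mean-dependent prior and fits without each array were run.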

Additional observations from a re-analysis of the deposited data

Results flagged for a closer look

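The change at 24 h after heat differed between the strains by a test of the difference itself for 2 of the 10 probe sets. Boll 1456842_at gave an AKR/N minus C57BL/6 difference of 1.55 on the log2 scale (limma, adjusted p = 0.0432), from signals of 511 and 520.1 at 24 h against 369 and 422 in controls of AKR/N, and 190.0 and 210.4 at 24 h against 445 and 504 in controls of C57BL/6. Pabpc6 gave a difference of 1.40 (adjusted p = 0.0338), from 1396 and 928 against 2997 and 2741 in AKR/N, and 332 and 285.5 against 1945 and 2317 in C57BL/6. Each had 2 arrays per group. In the fits that each left out 1 of 8 arrays, Boll 1456842_at ranged from 1.46 to 1.65 and lost the call in all 8, and Pabpc6 ranged from 1.11 to 1.69 and lost it in 7. The Boll call was also lost with all 8 arrays in 4 of the 9 other settings, so in 12 of 17 in all.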

How the results depend on the processing

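Of the 26 called changes of the members none turned its sign in any setting run. The number of members called at C57BL/6 10 h was 1 and became 5 with a pseudocount of 64, a 60th percentile filter or a mean-dependent prior, and at AKR/N 10 h it was 0 and became 1 with the same filter or prior. Keeping 1 probe set per gene left 3 members called at C57BL/6 12 h, 3 at C57BL/6 24 h and 3 for the mean of 5 conditions (5 each before), with fewer member probe sets tested. The 3 for the mean of 5 conditions include Boll 1456842_at, newly called in that setting (0.29, limma adjusted p = 0.0457). For AKR/N 24 h against 12 h, 2 became 1 with a pseudocount of 1 or median centring. For the strain difference of the change at 24 h, 2 became 1 with a pseudocount of 1, no filter, median centring or the replicate block, and 4 with a pseudocount of 64 or the mean-dependent prior. With the replicate block, the calls of Boll 1456842_at in that difference (1.55, adjusted p = 0.0593) and of Dazl 1419542_at for the mean of 5 conditions (-0.20, adjusted p = 0.0549) were lost, and no other call was. Median centring left 1 of the poly(A) list called in AKR/N at 24 h (6 before), and of the DAZL and YBX2 messages 1 in C57BL/6 (4 before) and 0 in AKR/N (2 before). Apart from the drop in member probe sets tested, no cause of these shifts was tested.

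Leaving out 1 array at a time gave 0 to 0 member calls at C57BL/6 8 h and 10 h, 2 to 3 at C57BL/6 12 h, 4 to 5 at C57BL/6 24 h, 0 to 1 at AKR/N 10 h and 12 h, 2 to 4 at AKR/N 24 h, 0 to 1 for AKR/N 24 h against 12 h, 4 to 6 for the mean of 5 conditions and 0 to 1 for the strain difference at 24 h. Of uncalled changes printed above, Boll 1427599_at in AKR/N ran from -0.34 to 0.13 at 12 h and from -0.27 to 0.20 at 24 h, Pabpc1 1453840_at in AKR/N at 24 h from -1.15 to 0.14, and Pabpc6 in C57BL/6 at 8 h from -0.21 to 0.039. The values kept here were limited, after values were seen, to called and printed changes. Over all 160 changes of the members, 16 of 1360 values turned sign in other settings and 62 of 960 without 1 array, none of them of a called change.

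The median change over all tested probe sets was 0.0851 at C57BL/6 24 h and 0.0631 at C57BL/6 12 h, and with median centring -0.07 and -0.0627, where Dazl 1419542_at stood at 0.68 and 0.45. It moved the share of calls that were higher from 57.8% to 41% at C57BL/6 24 h, from 52% to 32.7% at C57BL/6 12 h, from 45.6% to 34.5% in controls and from 59% to 75.7% for the strain difference at 24 h. Over all tested probe sets the calls of that difference at 24 h numbered 217, and 126 to 903 under other pseudocounts, filters and scalings, and those at 10 h 33, and 7 to 185 (5 of 15762 with 1 probe set per gene).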

Other observations

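Markers of somatic cells and of earlier germ cells were counted in the same way, from the limma fit, at 24 h against control. The shares of all genes called higher and lower were 12.3% and 11.1% in AKR/N, and 21.4% and 16.6% in C57BL/6. Several of the counts below are near these shares. Of 9 tested Sertoli cell markers, 4 rose in AKR/N and 5 in C57BL/6. The summed signal of the list was 8581 to 8643 at 24 h against 5842 to 6202 in controls of AKR/N, and 9010.1 to 9420.2 against 5231 to 5432 in C57BL/6. Clu, the brightest of that list, alone had signals of 3843 to 7365 over all arrays, so the sum depends largely on 1 gene. Of 8 macrophage and leukocyte markers, 4 rose in each strain. Of 6 Leydig cell markers, 2 fell in AKR/N, and 3 rose and 2 fell in C57BL/6. Of 5 peritubular myoid markers, 2 rose in AKR/N and 1 in C57BL/6, and of 5 endothelial markers 0 were called in AKR/N and 2 rose in C57BL/6. Of 8 spermatogonial markers, 2 rose in AKR/N and 1 in C57BL/6, and of 7 early meiotic markers 2 rose in AKR/N and 1 fell in C57BL/6. The spermatogonial list summed to 1093 to 1111 at 24 h against 773 to 839 in controls of AKR/N. In C57BL/6 it summed to 917 to 1052 against 763 to 773. The early meiotic list summed to 4420 to 4501 against 3481 to 4103 in AKR/N. In C57BL/6 it summed to 3123 to 3499 against 4491 to 4679. Sycp3, the brightest of that list, alone had signals of 1430 to 2710 over all arrays. None of 5 neutrophil, 2 epididymal and 1 red blood cell markers was called by limma in either strain. Their part in the changes of the 5 genes was not tested.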
